A study of Drosophila melanogaster with 2 samples.

Results

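The peaks described here are 819 places where the tagged zinc-finger protein CG14667 was enriched next to the start of a protein-coding gene, but not in the gap between a pair of genes that run apart from each other. They were taken from the conservative peak list of the series. A peak was kept when its summit, the base of highest signal, lay on a chromosome arm and within 500 bp of a protein-coding transcription start. Peaks with a minus-strand start on their left and a plus-strand start on their right, both within 500 bp, were set aside as head-to-head peaks (485). The 819 promoter peaks were 27.0% of the 3029 conservative peaks on the arms and 62.8% of the 1304 peaks within 500 bp of a protein-coding start. The study immunoprecipitated chromatin with an antibody against GFP from a transgenic Drosophila melanogaster strain whose CG14667 protein carries eGFP, and sequenced the DNA. The material was whole embryos of 0 to 24 h, a mix of all tissues and stages, with sonicated fragments of 200 to 800 bp. Both biological replicates belong to 1 group, so there is no contrast between conditions, and the sequencing depth is unknown because only peak lists were used. The signal of a peak is the authors' value against a control, on a scale the listings do not give.

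A promoter is the DNA around the base where transcription starts, and factors that recruit RNA polymerase bind mostly on its upstream side. Fly genes are often packed so closely that neighbours on opposite strands share a promoter region, while others have a promoter of their own, start inside a longer gene, or follow a neighbour on the same strand. CG14667 belongs to a large insect family of C2H2 zinc-finger proteins with an N-terminal ZAD domain, several of which bind promoters and insulators.

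Windows that reach from 50 bp before to 50 bp after the summit show the kind of DNA under these peaks. They are read in the direction of the nearest gene from the RefSeq assembly that matches dm6, and none overlaps an annotated exon. The first 6 belong to the strongest promoter peaks for which such a window could be printed, and capitals mark every unbroken run of at least 6 A or T. They lie at chr3L:19590571-19590671 (minus strand), chrX:2137300-2137400 (minus), chr3R:12449126-12449226 (plus), chr3R:25515843-25515943 (plus), chr3R:16280679-16280779 (plus) and chr2L:4997615-4997715 (minus).
CG14100: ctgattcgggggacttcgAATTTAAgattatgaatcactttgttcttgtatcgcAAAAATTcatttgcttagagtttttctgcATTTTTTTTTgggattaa
ph-p: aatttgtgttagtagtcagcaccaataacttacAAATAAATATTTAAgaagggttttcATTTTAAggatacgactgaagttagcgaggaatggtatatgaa
CG18549: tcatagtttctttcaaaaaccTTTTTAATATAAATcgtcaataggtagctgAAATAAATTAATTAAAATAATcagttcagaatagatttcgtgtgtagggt
msi: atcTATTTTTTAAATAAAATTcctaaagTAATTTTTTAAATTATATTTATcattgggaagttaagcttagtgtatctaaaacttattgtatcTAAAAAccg
gish: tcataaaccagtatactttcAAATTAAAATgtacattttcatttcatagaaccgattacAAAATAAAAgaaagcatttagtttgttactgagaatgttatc
Rtnl1: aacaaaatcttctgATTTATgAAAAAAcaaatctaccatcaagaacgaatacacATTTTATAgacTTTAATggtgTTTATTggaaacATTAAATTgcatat
Their GC content was between 19.8% (msi) and 31.7% (CG14100), and the marked runs took up 46 bases in msi, 40 in Rtnl1 and 19 in gish. A further 2 windows, chosen after their values were seen, belong to the strongest printable peaks with a summit richer in GC than its surroundings, at chrX:2050237-2050337 (minus) and chr3R:27281182-27281282 (minus), with capitals as before.
moody: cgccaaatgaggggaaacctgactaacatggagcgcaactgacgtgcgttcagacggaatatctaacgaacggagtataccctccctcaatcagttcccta
mrt: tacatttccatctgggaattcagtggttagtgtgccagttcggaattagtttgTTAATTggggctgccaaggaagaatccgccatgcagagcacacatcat
The window at moody, a receptor gene of the glia that form the blood-brain barrier, was 50.5% GC and held no such run, and that at mrt was 45.5% GC with 1 run of 6 bases. The last 3, also chosen afterwards, are the strongest printable peaks with the DNA replication-related element (DRE) TATCGATA, here in capitals, at chrX:15139368-15139468 (minus), chr3L:13023248-13023348 (plus) and chr3R:9245880-9245980 (minus).
RpL37-1: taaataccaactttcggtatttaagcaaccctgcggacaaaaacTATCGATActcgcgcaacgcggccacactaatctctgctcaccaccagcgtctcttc
RpS12: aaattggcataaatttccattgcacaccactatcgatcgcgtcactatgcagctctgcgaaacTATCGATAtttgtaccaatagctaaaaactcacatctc
Vps15: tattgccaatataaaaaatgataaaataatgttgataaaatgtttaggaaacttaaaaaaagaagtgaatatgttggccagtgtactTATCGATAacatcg
Their summits lay 51, 54 and 61 bp upstream of the start, closer to it than the summits of the AT-rich windows, which were 97 to 495 bp upstream.

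The 20 strongest promoter peaks had pooled signals from 767.0 to 2115, and all 20 were in both replicates' own thresholded lists. The first, at the Golgi sugar transporter gene Ugalt, reached 1038 in the first replicate and 1084 in the second. At CG14100 the replicates gave 1017 and 990.7. At mRpL41, which encodes a protein of the large subunit of the mitochondrial ribosome, they gave 902.1 and 776.2, with the summit 140 bp upstream. The peak in ph-p, a gene of the Polycomb repressive complex, had 796.1 and 721.0. Across the 20 the ratio of replicate 1 to replicate 2 ran from 0.840 to 1.41, and replicate 1 was the higher in 14 of 20.

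Genes with quite different roles followed. The translation factor gene eIF6 had replicate signals of 621.3 and 643.5. CG8320 had 527.0 and 627.5, with its summit 85 bp downstream of the start. GstE13, a glutathione S-transferase gene, had 578.2 and 569.5, with its summit 84 bp downstream of the start in the 5' UTR. PNPase, which encodes an RNA-degrading enzyme of mitochondria, had 581.5 and 559.7 at 74 bp downstream. The developmental genes px, which acts in wing veins, and Sox14, an HMG-box transcription factor gene, had pooled signals of 1087 and 1019. CG18549 had 1046, the ER prolyl isomerase gene Fkbp14 had 1013, the transporter gene MFS10 had 911.3, CG1888 had 901.0 and tank had 895.9. The last 5 were msi (830.9), which encodes the RNA-binding protein Musashi, gish (817.7), a casein kinase gene, Rtnl1 (799.0), the reticulon gene of the endoplasmic reticulum, CG11857 (768.5) and CG13921 (767.0). Of the 20 summits 16 were upstream of the nearest start, 17 were poorer in GC than their flanks, and at 8 the nearest start lay inside the gene's own body, as an alternative promoter.

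Most of the 819 were ordinary in strength. The median pooled signal was 129.4, with quartiles of 87.8 and 218.1 and a range of 2.20 to 2115, and 49 peaks (5.98%) reached 500. Head-to-head peaks had a median of 137.7 and peaks farther than 500 bp from a protein-coding start 105.7.

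Summits lay upstream of the start they were nearest to in 694 of the 819 peaks (84.7%, 95% Wilson interval 82.1 to 87.0%), downstream in 124, and on the start base in 1. The head-to-head peaks that the rule removed are all upstream of both starts, so the rule bears on this share, which is given as a description. The median position was -157 bp, and the middle of the distribution ran from -257 to -68.5 bp (quartiles). Counted in steps of 100 bp, the first step upstream held 150 peaks, the next, up to 200 bp, held 245 (29.9%), and that up to 300 bp held 148. Downstream the steps held 41, 32, 8, 18 and 25 peaks. Of all 10 steps, the one that ended 200 bp upstream also had the largest median signal, 152.0. The next one out had 148.7 and the first step upstream 110.9. Among the 200 strongest peaks the quartiles of position were -230 and -104.75 bp, and among the 200 weakest they were wider apart, -276.75 and -51.5 bp, with 88.0% and 85.0% of summits upstream. The 200 weakest take in 27 peaks with a signal under 40, described below, of which 21 are centred 100 bp or more from the replicate summits.

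**Figure D1:**
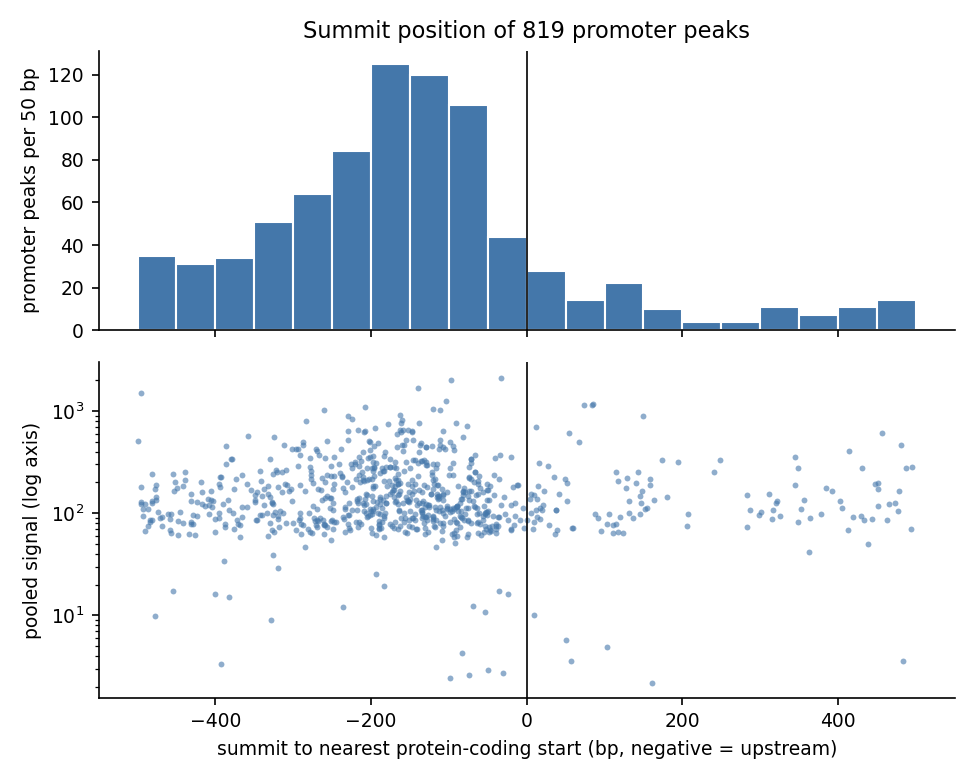
The upper panel counts the 819 promoter peaks by the distance of their summit from the nearest protein-coding start, in bins of 50 bp with upstream to the left. The lower panel gives the pooled signal of each peak on a log axis, and the 27 peaks with a signal under 40 are scattered on both sides of the start.

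The annotation placed 392 summits (47.9%) between genes, 284 (34.7%) in introns, 97 (11.8%) in 5' UTRs, 16 in 3' UTRs, 6 in coding exons and 24 in other exons. Of the 124 downstream summits 73 were in a 5' UTR, 45 in an intron and 5 in a coding exon. Upstream summits in introns numbered 239. For 774 peaks only 1 gene had a start within 500 bp, for 44 there were 2 genes, and for 1 there were 3. At 22 peaks starts of both strands lay within 500 bp, such as CG8320 with Pex11ab and tank with CG12194. By the rule none of these summits had both a minus-strand start on its left and a plus-strand start on its right.

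What lay just upstream of the nearest start differed between peaks. At 294 peaks (35.9%) the next gene upstream ran on the same strand, at a median distance of 744 bp, against 27.0% of all 19630 protein-coding starts. At 279 peaks (34.1%) the start was inside the same gene, against 28.8% of all starts, and at 47 (5.74%) it was inside another gene, against 10.7%. At 199 (24.3%) the neighbour ran apart on the other strand, against 33.5% of starts, a share that the removal of head-to-head peaks lowers, and 78 of these neighbours were within 1000 bp. Median signals were 123.7 for the tandem arrangement, 121.9 for the divergent one, 142.8 for starts inside the same gene and 127.0 for those inside another. The nearest start was the gene's outermost one at 540 peaks (65.9%), where 71.2% of all starts are. These shares describe the annotation and were not tested, since a gene with several starts counts several times.

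Some genes carried several peaks. Of the 796 genes with a promoter peak, 739 had 1, 49 had 2 and 8 had 3 to 5. These numbers include weak summits beside a stronger peak of the same gene, such as that of CAP with 25.6 at 199 bp from one with 225.6, and 46 of the 819 peaks overlapped another promoter peak. Ptpmeg2, a protein tyrosine phosphatase gene, had 5, with pooled signals of 504.6, 259.8, 153.1, 97.1 and 80.4. Rtnl1 had 4 (799.0, 428.6, 135.1 and 125.3), and so did Moe, the gene of the membrane-cytoskeleton linker moesin (210.5, 130.9, 118.3 and 75.2). The others with 3 were CAP, CG5004, dnc, the cAMP phosphodiesterase gene, ph-p and shep. Within a gene the peaks differed several-fold in signal, for example 1512, 603.3 and 66.7 in ph-p. These genes were named for their number of peaks after the values were seen.

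The conservative list was thresholded by the authors on reproducibility between replicates, so the agreement described here was in part a condition of the choice. Replicate 1's own thresholded list held 643 of the 819 (78.5%) and that of replicate 2 held 562 (68.6%). Both held 507 (61.9%, 95% Wilson interval 58.5 to 65.2%), against 56.2% of all 3029 arm peaks. Another 136 were in replicate 1's list alone, 55 in replicate 2's alone and 121 in neither, although 797 overlapped at least a ranked candidate in both. Signal went with membership of both lists, which was 23 of the weakest 205 peaks (11.2%), 98 of the next 205 (47.8%), 183 of the next 204 (89.7%) and 203 of the strongest 205 (99.0%).

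Over the 507 peaks in both lists the signals of the replicates had a Spearman correlation of 0.853, and their log2 values a Pearson correlation of 0.899. These describe peaks of the same libraries that had already passed in both, not independent samples. Replicate 1 was the higher at 371 of them (73.2%). The log2 ratio of the first to the second had a median of 0.25 and an SD of 0.40 over peaks, and 11 differed by more than 2 times. The median ratio was 0.25 for the 119 such peaks on X and 0.25 for the 388 on other arms. The summits of the replicates were a median of 18 bp apart, and 445 of the 507 pairs (87.8%) were within 50 bp.

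**Figure D2:**
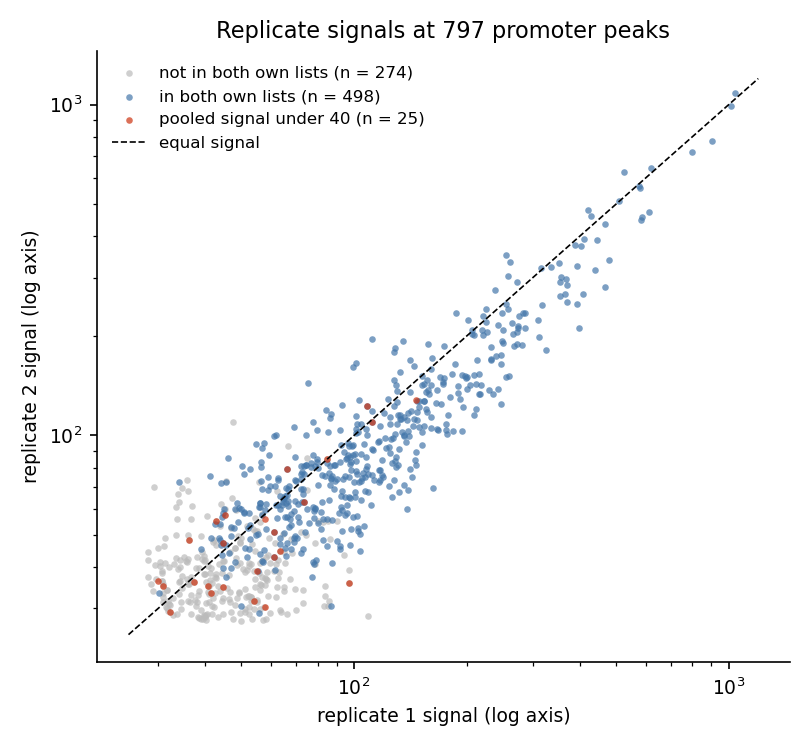
Each point is 1 of the 797 promoter peaks with a ranked candidate in both replicates, plotted by its signal in replicate 1 and in replicate 2 on log axes, and the dashed line marks equal signals. Most of the 498 blue points (in both replicates' own lists, red points not counted) lie below the line, and the 25 red points are peaks with a pooled signal under 40, which have replicate signals of 29 or more.

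A small group of 27 promoter peaks had pooled signals under 40, from 2.20 to 39.1, although their replicate signals had medians of 57.8 in replicate 1 (27 peaks) and 44.7 in replicate 2 (25 peaks). At 26 of the 27 another conservative summit lay within 500 bp, 199 to 211 bp away. At 21 the summits of both replicates, or of the only one with a candidate, were 100 bp or more from the pooled summit, which was so at 3 of the other 792 peaks. At Smg5, a gene of nonsense-mediated mRNA decay, the pooled signal was 4.32, the replicate signals were 108.3 and 123.0 with summits 169 and 205 bp to the left, and the neighbouring conservative peak had 230.6. At Act5C, a cytoplasmic actin gene, the pooled signal was 17.3 beside a neighbour with 278.6. At those 21 peaks the replicate values are of candidates centred away from the pooled summit. In all, 30 of the 819 overlapped a stronger conservative peak, 25 of them with a signal under 40, and a result is also given without them where that changed a call among the settings run.

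DNA at the summit was poorer in GC than the DNA around it. Within 50 bp of the summit the mean GC content was 34.0% (SE 0.358, n = 819 peaks), and in windows centred 300 bp to either side it was 43.2% (SE 0.260), a mean dip of -9.21 percentage points (SE 0.458). For comparison, windows of the same width centred 150 bp upstream of all protein-coding starts were 37.3% GC. The dip was not particular to promoter peaks. Peaks over 500 bp from a protein-coding start had a mean dip of -10.8 points (SE 0.309, n = 1725) and summits of 33.7% GC. The surroundings were lopsided. On the upstream side the flank was 39.4% GC (SE 0.388) and on the downstream side, toward the gene, 47.0% (SE 0.323). The dip was deeper for the 200 strongest peaks, at -12.1 points (SE 0.829), than for the 200 weakest, at -5.45 (SE 0.983), and across the 819 the Spearman correlation of signal and dip was -0.20, a weak relation given only as a description. The 200 weakest take in the 27 peaks under 40, of which 21 are centred 100 bp or more from the replicate summits. Their dip was not measured without these. Upstream summits had a mean dip of -9.89 points (SE 0.494, n = 694) and downstream ones of -5.56 (SE 1.17, n = 124).

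At 185 promoter peaks (22.6%) the summit was richer in GC than its flanks. Their summits were closer to the start, with a median position of -75 bp against -176 bp for the other 634, and their median signal was 101.9 against 138.6. In the first 100 bp upstream lay 37.8% of them and 12.6% of the others. Among peaks over 500 bp from a start 17.7% of summits were richer in GC than their flanks, and among head-to-head peaks 11.3%.

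**Figure D3:**
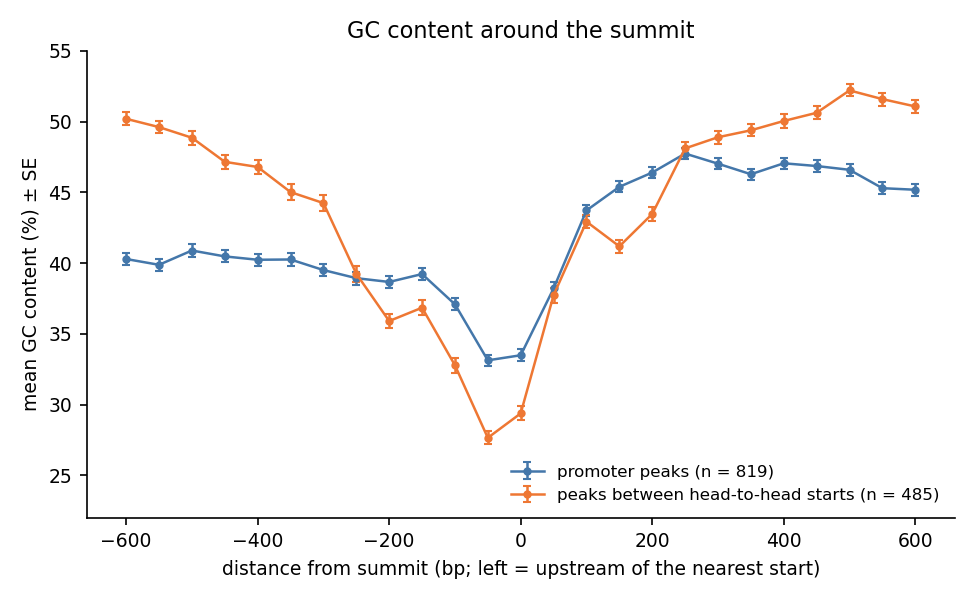
Mean GC content with its SE is plotted in windows of 25 bp to either side against the distance from the summit, turned so that the nearest gene lies to the right, for the 819 promoter peaks (blue) and the 485 head-to-head peaks (orange). Both have their minimum in the window 50 bp upstream of the summit, at 33.1% and 27.7%, but 600 bp upstream the promoter peaks stayed at 40.3% where head-to-head peaks had risen to 50.2%.

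Promoter and head-to-head peaks were compared on 6 measures, with p-values adjusted over the 6, and 4 of them (66.7%) passed a threshold of 0.05. The p-values are taken over peaks, which share libraries, and describe these 2 replicates. The GC dip was shallower at promoter peaks, -9.21 points against -15.8 (SE 0.566, n = 485), a difference of 6.57 points (permutation test with 100000 resamples, two-sided, adjusted p = 3e-05, from the smallest p they can give). The GC content of the head-to-head flanks was 46.2% and that of their summits 30.4%. The rule puts a start on both sides of those summits within 500 bp, so it bears on their flanks and on this test. The flank upstream of the nearest start was 43.4% GC at head-to-head peaks and 39.4% at promoter peaks. The part of the rule in the dip difference was not tested.

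Promoter peaks were more often on X. Of the 819, 179 were on X (21.9%), against 51 of 485 head-to-head peaks (10.5%), an odds ratio of 2.38 (adjusted p = 7.01e-07, Fisher's exact test, two-sided). By annotation, X carries 15.3% of the protein-coding starts with a divergent neighbour within 1000 bp and 17.3% of the other starts, and 16.9% of all starts. These classes of starts are not the rule that sorted the peaks, and the part of gene arrangement in the X share was not tested. The other arms held 132 promoter peaks on 2L, 165 on 2R, 162 on 3L, 180 on 3R and 1 on chromosome 4, upstream of the plexin gene PlexA with a pooled signal of 465.1.

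The median signal did not separate the groups, with a log2 difference of -0.09 (permutation test, adjusted p = 0.140). Setting both limits of the rule to 250 bp redrew the groups, to 733 promoter and 302 head-to-head peaks. The difference in signal was then -0.40 and passed (permutation test, adjusted p = 3e-05). The median width was 336 bp in both groups and among the peaks far from a start, so a test of medians could not separate them (permutation test, adjusted p = 1). Fewer promoter peaks were in both replicates' own lists, 61.9% against 68.0% of the head-to-head peaks (adjusted p = 0.0406 by Fisher's exact test, odds ratio 0.763). This call was lost under 4 of 7 other settings, 1 of which left out the peaks that overlap a stronger one (adjusted exact p = 0.0895). The ratio of replicate 1 to replicate 2 was slightly larger at promoter peaks, a median log2 ratio of 0.25 (n = 507) against 0.14 (n = 330), a difference of 0.11 (permutation test, adjusted p = 0.0011). Summit GC moved with this ratio, with a Spearman correlation of -0.25 over the 507 promoter peaks, and its part in the difference was not tested. In the groups redrawn at 250 bp the call on the ratio was lost (adjusted permutation p = 0.119).

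Of 16 known motifs, searched as exact words on both strands, 5 (31.2%) differed between the window within 50 bp of the summit and a window of the same width 300 bp farther upstream (exact McNemar tests, adjusted over the 16). The clearest was a shortage. GAGAG, the core of the sites of the promoter factor GAF, was in 59 of the 819 summit windows (7.20%, 95% Wilson interval 5.63 to 9.18%) against 135 control windows (16.5%), with an adjusted p of 1.5e-07 in the exact test. It is found in 14.3% of windows 150 bp upstream of all starts and in 5.36% of head-to-head summits. Among the summits of all arm peaks, promoter peaks included, 7.56% hold it, close to the share at promoter peaks. The Zelda word CAGGTA, bound by an activator of the early embryonic genome, was at 9 summits and in 26 control windows (adjusted exact p = 0.0192). The Zelda call was lost under 8 of 10 other settings, among them without replicate 1 (adjusted exact p = 0.0906), without replicate 2 (adjusted exact p = 0.345) and without the peaks that overlap a stronger one (adjusted exact p = 0.0642).

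The 3 motifs found more often at the summit were the TATA box, the BEAF-32 element and the DRE. The TATA word TATAAA was at 186 summits (22.7%) and in 123 control windows (15.0%, adjusted exact p = 0.00105), where 18.7% of all start windows hold it. The summits that held it lay at a median of -174.5 bp, next to -157 bp for all 819. A TATA box is known to act close to the start, and whether these words act as one was not tested. The BEAF-32 element CGATA, core of an insulator protein's sites, was at 154 summits (18.8%) against 12.3% of control windows (adjusted exact p = 0.0015) and 14.8% of start windows. The DRE, site of the promoter factor DREF, contains CGATA, and 137 of the 154 had CGATA without a DRE. The DRE itself was at 17 summits (2.08%) against 4 control windows (adjusted exact p = 0.0177) and 1.04% of start windows. Among the summits of all arm peaks, promoter peaks included, TATAAA was at 24.1%, CGATA at 14.3% and the DRE at 1.02%. The TATAAA call was lost only with both limits of the rule at 250 bp (adjusted exact p = 0.120), of 10 other settings. The BEAF-32 call was lost under 4 of them, with the difference from the control of 6.47 points at 4.90 without replicate 1 (adjusted exact p = 0.0906) and at 2.49 without replicate 2 (adjusted exact p = 0.469). The DRE call was lost under 6, with its difference of 1.59 points at 1.23 without replicate 1 (adjusted exact p = 0.246) and at 0.524 without replicate 2 (adjusted exact p = 0.575). GC content was 34.0% in summit windows and 39.4% in the control windows. Summits with TATAAA were 28.0% GC against 35.8% for those without it. For CGATA the values went the other way, 36.7% against 33.4%, as they did for the DRE, 40.7% against 33.9%. The part of GC content in these counts was not tested.

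The 17 DRE peaks sat close to the start. Of them 15 had a summit within 100 bp of it, where 192 of all 819 (23.4%) did, and their median signal was 113.2. The largest was at Alg3, a gene of N-glycan assembly, with replicate signals of 215.8 and 153.2. Next was CG1827 with 192.1 and 128.6. The translation elongation factor gene eEF1gamma had 146.2 and 81.7. Genes of the cytoplasmic ribosome made up 6 of the 17, RpS15Aa, RpS29, RpL37-1, RpS12, RpL39 and RpL10Ab, with pooled signals from 12.3 to 151.4. Over all 819 peaks, 17 genes of the ribosomal list described below had a promoter peak, and that list does not hold RpL37-1. The peak at RpL10Ab (12.3) is one of the weak peaks beside a stronger summit, 199 bp away, and the summits of the replicates were 94 and 96 bp from it. These peaks were chosen by a DRE within 50 bp of the summit and named after their values were seen.

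**Figure D4:**
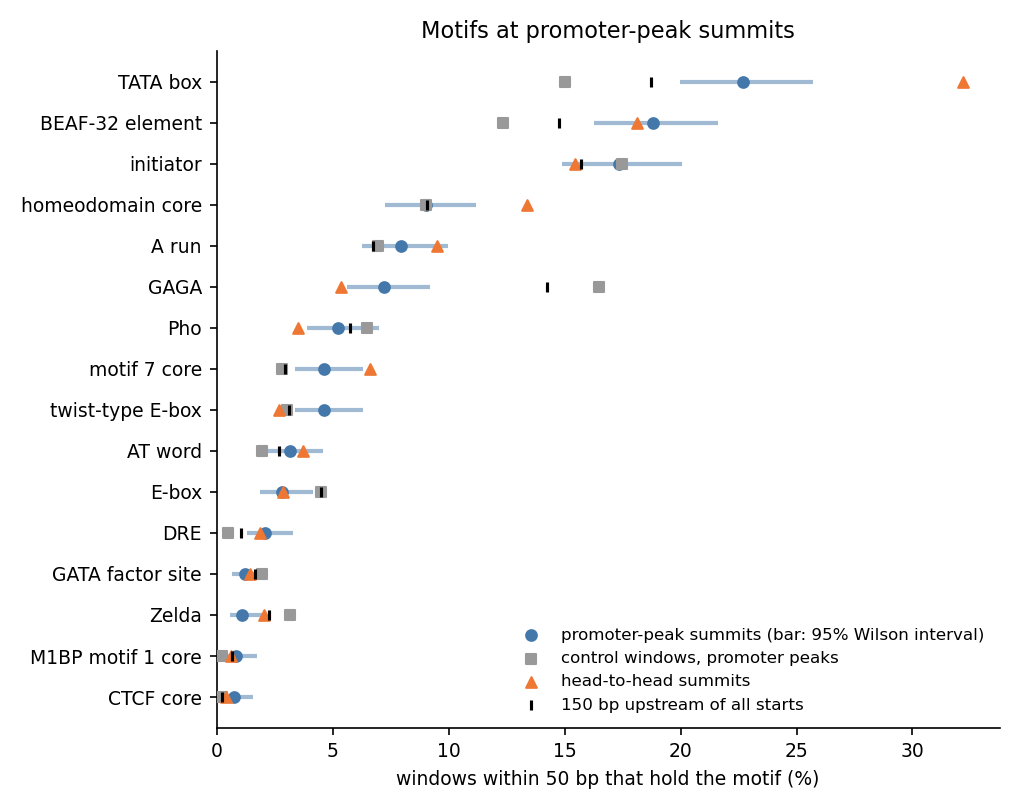
For each of the 16 motifs the plot gives the percent of windows within 50 bp that hold it at the 819 promoter-peak summits (blue, with the 95% Wilson interval), in their control windows (grey), at the 485 head-to-head summits (orange) and 150 bp upstream of all protein-coding starts (black bars). GAGA stands to the left of its control and start windows, while TATA box and BEAF-32 element stand to the right of theirs.

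Against head-to-head peaks 1 of the 16 motifs (6.25%) differed. TATAAA was at 22.7% of promoter-peak summits and at 32.2% of head-to-head summits (adjusted p = 0.00326 by Fisher's exact test, odds ratio 0.620), next to summit GC contents of 34.0% and 30.4%. This call was lost without replicate 2 (-6.66 points, adjusted Fisher's exact p = 0.0713) and at a global IDR of 0.001 or less (adjusted Fisher's exact p = 0.197). The homeodomain core TAATTA was at 9.04% of promoter summits and of their control windows alike (74 each), and at 13.4% of head-to-head summits (adjusted Fisher's exact p = 0.125). The DRE was at 2.08% and 1.86%. The CTCF core AGGTGGCG was at 6 promoter summits and 2 control windows (adjusted exact p = 0.42), and the M1BP core GGTCACAC at 7 and 2 (adjusted exact p = 0.288).

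Signal was compared between promoter peaks with and without each motif found at 20 or more of them, and 1 of 11 motifs (9.09%) passed. Peaks with TATAAA had a median pooled signal of 160.6 against 124.2 without it, a log2 difference of 0.37 (permutation test, adjusted p = 0.00319), a call lost with windows within 100 bp of the summit (adjusted permutation p = 0.0522). Summits with the word were 28.0% GC and those without it 35.8%, and the part of composition was not tested. Peaks with CGATA had a median of 109.9 against 132.3 (permutation test, adjusted p = 0.0905).

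An open search for 8-base words gave strings of A and T. The 476 promoter peaks on X and both arms of chromosome 2 served to rank words by their excess at the summit. Of the 10 that led, 4 (40.0%) passed on the 343 peaks of chromosomes 3 and 4. None passed in the other thresholded list or with both limits of the rule at 250 bp, and 1 did without replicate 2. AAAAATTA was at 27 of the 343 summits and in 6 control windows (exact McNemar test, adjusted p = 0.00147). TTTAAAAA was at 32 against 9 (adjusted exact p = 0.00147), ATTTAAAA at 33 against 13 (adjusted exact p = 0.0122) and ATATTTTA at 22 against 8 (adjusted exact p = 0.0403). Ranked by the exact test itself, an order chosen after the data were seen, the first words included TTCTTAAA, at 21 against 2 windows where it was found and 12 against 7 where it was tested (adjusted exact p = 0.508), and CACAGTGG, at 15 against 2 and then 6 against 3 (adjusted exact p = 0.508).

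Promoter peaks were spread over many kinds of genes. Of 13968 protein-coding genes 796 (5.70%) had a promoter peak within 500 bp of a start, and 982 (7.03%) had a head-to-head peak. By the rule each of the 485 head-to-head peaks counts for a gene on each strand, while 774 of the 819 promoter peaks count for 1 gene. In 16 gene lists the shares ran from 0 to 19.8%, and most of their intervals took in the 5.70%. The lists were drawn up with earlier results of these data known, so their shares are descriptions. Signals and positions given for a list are those of each gene's strongest promoter peak.

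Genes for proteins of the cytoplasmic ribosome had the largest share, 17 of 86 (19.8%, 95% Wilson interval 12.7 to 29.4%), and 17 had a head-to-head peak. Genes of this list with both kinds of peak were not counted apart. The largest signals were at RpS28b (133.9 in replicate 1 and 102.2 in replicate 2), RpL23A (128.9 and 100.8) and RpL5 (104.6 and 88.2). With the strongest promoter peak of each of the 17 genes, the median pooled signal, 130.3, was close to that of all promoter peaks. RpL10 also had a weak peak, with 12.2 at 207 bp from its strongest, which is left out here. The summits of the strongest peaks lay close to the start, between -100 and 17 bp with a median of -54 bp. Of these 17 summits 14 were richer in GC than their flanks, by 8.56 points on average over all 17. Of the 17, 11 were in both replicates' own lists.

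Translation factors had 7 of 51 (13.7%), all 7 in both lists, led by eIF6 (pooled signal 1263), eEF5 (373.9) and eEF1gamma (216.8). Apart from eIF6 and eIF3h their summits were richer in GC than the flanks. Of 34 chromatin, insulator and Polycomb group genes 4 had a promoter peak (11.8%), namely ph-p, Trl, which encodes GAF (186.8), BEAF-32 (151.8) and ph-d (76.5), the sister gene of ph-p. In the family of CG14667 itself 3 of 17 ZAD zinc-finger genes did, Sry-delta (357.3), Phs (107.9) and CG7386 (90.8). Genes with a head-to-head peak numbered 2 among translation factors, 6 in the chromatin list and 2 among ZAD zinc-finger genes.

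Lists of developmental genes were small and their intervals wide. The 4 of 38 signalling genes (10.5%) were led by sgg, the GSK3 kinase gene (167.5 in replicate 1 and 103.6 in replicate 2), spi, which encodes an EGF receptor ligand (141.6 and 118.3), and nkd, a Wnt antagonist gene (135.6 and 70.8). Of 27 neuronal genes 2 had one, elav (255.0 and 249.6), a marker of neurons, and numb (211.4 and 143.1), which acts in asymmetric division. Of 18 patterning genes bcd alone did (169.4), and none of the 8 Hox genes did, for which the upper 95% Wilson limit is 32.4%. Replication and cell cycle genes had 4 of 39 (10.3%), led by Dp (274.7), CycE (161.3) and Cdc27 (86.1), DNA repair 2 of 30, mei-9 (109.3) and spn-B (96.4), and splicing factors 2 of 25, B52 (143.0) and Sf3b3 (69.8). Head-to-head peaks were at 8 DNA repair genes, 4 replication and cell cycle genes, 3 splicing factors and 1 signalling gene. The neuronal, patterning and Hox lists had 0 genes with one.

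The 5 remaining lists had shares from 0 to 5.48%, some of them next to the 5.70% of all genes, and were set together after their values were seen. Genes of the respiratory chain had 0 of 85 (upper 95% Wilson limit 4.32%) against 9 with a head-to-head peak. RNA polymerase, general factor and Mediator genes had 3 of 85 (3.53%), at Polr2F (167.0), MED4 (128.6) and Taf4 (113.1), against 17. Mitochondrial ribosomal protein genes had 4 of 73 (5.48%) against 12, with mRpL41 far above mRpL4 (115.2) and mRpL18 (78.9). Vesicle transport genes had 6 of 114 (5.26%), led by Syx4 (186.1), deltaCOP (130.0) and Sec13 (104.3), against 17, and proteasome genes had 2 of 48, Prosbeta5R2 (49.6) and Prosbeta2 (10.2), against 7. The Prosbeta2 peak is one of the weak peaks, 199 bp from a stronger summit with 128.4, and its replicate summits were 198 and 206 bp away. The same peak also counts for mRpL39 among the mitochondrial ribosomal protein genes. Whether the split between promoter and head-to-head peaks differs between lists was not tested, nor was the share of each list's genes that lie head-to-head. The head-to-head counts also hold a gene on each strand per peak, so they are not on the same footing.

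**Figure D5:**
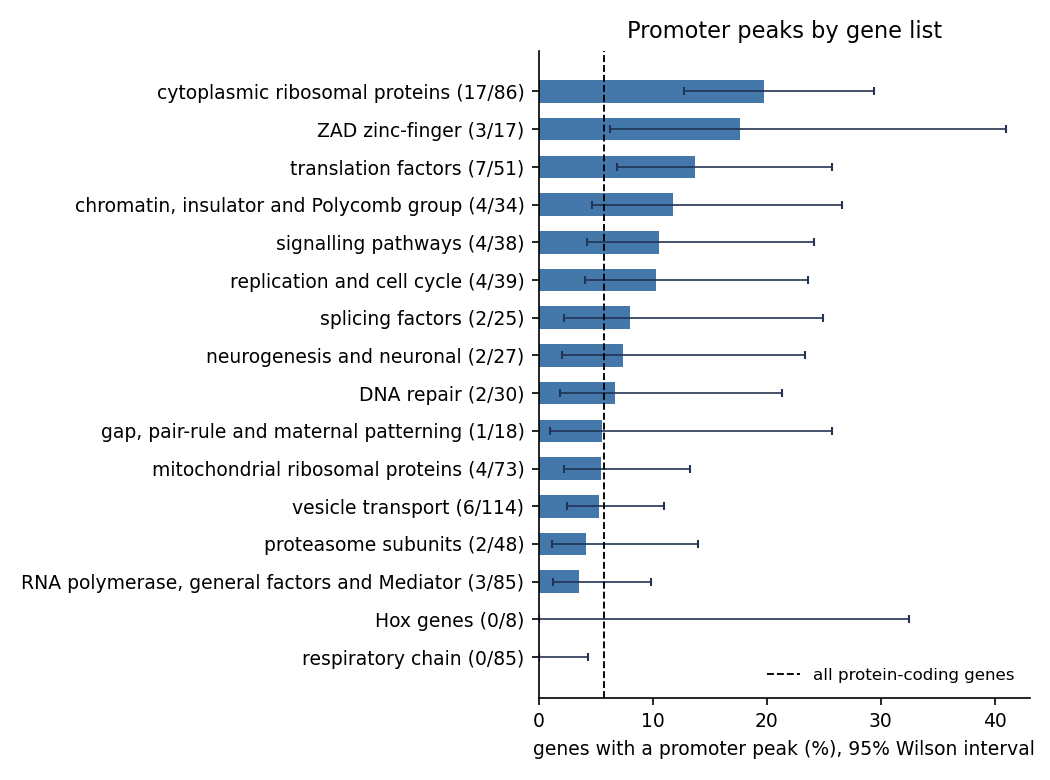
Bars give the percent of genes in each list with a promoter peak within 500 bp of a start, with the 95% Wilson interval and, in brackets, the count of genes with a peak over the number of genes in the list. The dashed line marks the 5.70% of all protein-coding genes, and the cytoplasmic ribosomal protein bar (19.8%) is the longest.

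The 500 bp limit cut through a continuous range. The promoter peaks just inside it were those of CG17896, 500 bp upstream with replicate signals of 286.0 and 235.2, and of Sqor, 496 bp upstream with 63.6 and 65.6. Just outside were the peaks nearest to CG43736 and SERCA, the calcium pump gene of the endoplasmic reticulum, both 502 bp upstream, with 97.2 and 76.1 and with 50.4 and 48.2. Within 20 bp of the limit 22 peaks inside had a median pooled signal of 122.3 and 16 outside had 120.7.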

How the data were processed

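Whole-embryo ChIP-seq peak lists from 2 biological replicates were used. Per the file headers and labels, the authors deposited for each peak a signal against a control (scale not given) and a summit offset (another whole number, in bp), while ranked lists also carry the global irreproducible discovery rate (IDR) as −log10, on dm6. The aligner and the peak caller were not given in the sources used here, and depth is unknown. Replicate signals came from the overlapping candidate of each replicate's ranked list with the nearest summit.

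Starts and gene models came from Ensembl release 115 and sequence from the RefSeq copy of the same assembly, whose arm lengths match. Tests ran in Python 3.11.15 with scipy 1.17.1 and numpy 2.4.6, were checked on simulated data, and used 100000 resamples where permuted, with Benjamini-Hochberg adjustment within each family and a threshold of 0.05. Wilson intervals are at 95% and cover counting error only. Peaks are not independent replicates. The peaks, gene lists and tests were chosen with earlier results of these data known. Genes named were those nearest the 20 strongest peaks, up to 3 per list by signal, 2 on each side of the limit, and those of printed sequences. Each other gene named was chosen after its values were seen. The symbol pattern for ribosomal proteins did not take up RpL37-1. Sequences from 1 chromosome arm were not printed. Alternatives were another list, each replicate alone, other limits, windows and overlaps.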

Additional observations from a re-analysis of the deposited data

How the results depend on the processing

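Promoter peaks kept a shallower GC dip than head-to-head peaks (difference 3.59 to 11.5 points) and a larger share on X under every setting run, as did the shortage of GAGAG at the summit. The rule that sorted the peaks bears on the flanks from which the dip is measured. The number of promoter peaks moved to 509 and of genes to 506 with a global IDR of 0.001 or less, and the upstream share to 87.4% within 250 bp and 74.4% within 1000 bp of a start. The signal difference passed within 250 bp (log2 -0.40). The difference in the share in both lists did not pass with a global IDR of 0.001 or less (-2.70 points), within 1000 bp (-4.58), with head-to-head starts within 1000 bp removed (-3.50) or without peaks that overlap a stronger one (-5.32, added after seeing the data), and that in replicate ratio did not within 250 bp (log2 0.0705).

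Motifs that differed from the control window numbered 5, and 2 at IDR 0.001, 1 within 250 bp, 3 with head-to-head starts within 1000 bp removed, 10 with the control downstream, and 2 to 3 with 1 replicate left out. Motifs that differed from head-to-head peaks numbered 1, and 2 in the other list and within 1000 bp, 0 at IDR 0.001, 8 with windows within 100 bp, and 1 to 2 with 1 replicate left out, although the TATAAA call itself was lost without replicate 2. Words numbered 4, and 0 in the other list and within 250 bp, 2 at IDR 0.001, with the wider window and without overlapped peaks, 7 within 1000 bp, 10 with the control downstream, 1 when ranked by the exact test, and 1 to 3 with 1 replicate left out. Motifs tied to signal numbered 1, and 2 within 250 bp and 0 with the wider window. The Zelda call was lost under 8 settings, the DRE call under 6 and the BEAF-32 call under 4. The causes were not tested. A replicate's own list gives no share in both lists and no replicate ratio. No paired analysis was possible because the series has 1 group.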
